A study of Mus musculus with 8 samples.

Results

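Fibroblast growth factor (FGF) signalling in the embryonic mouse pancreas is described here through 9 genes, the ligands Fgf1, Fgf7, Fgf9, Fgf10 and Fgf18 and the receptors Fgfr1, Fgfr2, Fgfr3 and Fgfr4. The 9 were taken by symbol from 19938 genes whose probe set carries exactly 1 gene symbol, and each had 1 such probe set. RNA levels come from 8 Affymetrix arrays (mouse gene 1.0 ST), in 4 pools of total RNA with 2 arrays each, the second a technical repeat. The VEGF pool held e12.5 pancreatic buds of 3 Pdx1-tTA; TET-VEGF embryos, and the control pool held those of 3 Pdx1-tTA littermates, so both carried the tetracycline transactivator under the Pdx1 promoter and only the first carried the VEGF transgene that it drives. The other 2 pools held buds of wild-type embryos, taken into culture at e12.5 and kept for 2 days with VEGFR2i, an inhibitor of VEGF receptor 2, or with vehicle, 5 per pool. Each condition was thus 1 pool without a biological replicate. The SDs given below (n = 2 arrays) measure hybridization error, and no p-value for a condition can be had.

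FGFs are secreted proteins that bind receptor tyrosine kinases together with heparan sulphate and act largely through the Ras and ERK kinase cascade. In the early pancreas Fgf10, made by the mesenchyme, acts on the epithelial splice form of Fgfr2 and keeps Pdx1-positive progenitors dividing. Fgf7 uses the same receptor form. Fgf9, which epithelia and mesothelia make in several organs, and Fgf18 act mainly on mesenchymal splice forms of the receptors, while Fgf1 can bind all of them. Each receptor probe set is tied by the platform annotation to the whole gene, so the splice forms are not separated in these values.

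All levels are log2 expression as deposited, and differences are between pool means, with the range over the 4 array pairs in square brackets. The size rule used throughout calls a gene higher or lower where pool means are 1.5-fold apart or more (log2 0.58) and the arrays of the 2 pools do not overlap. The second condition removed no gene of that size in the comparisons of buds, of explants or of vehicle explants with control buds. The labels of the explants do not match the direction of endothelial genes, since Cdh5, a cadherin of endothelial junctions, had a level of 8.66 under the VEGFR2i label and of 4.56 under the vehicle label. Whether the labels of the explant pools were exchanged cannot be told from these data. Explant directions are given by the deposited labels, and an exchange would turn the sign of every difference between the explant pools and make the explants labelled vehicle the inhibitor-treated ones. Pdx1, the early pancreatic transcription factor, was at mean levels between 6.38 and 8.43 in the 4 pools. Ptf1a, the factor of the pancreatic tip and acinar lineage, was at 3.88 in the VEGF pool and 3.96 in the control pool, and at 6.75 and 7.33 in the explants labelled VEGFR2i and vehicle. In pools of whole tissue, fewer cells of a type and less RNA per cell cannot be told apart.

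**Figure D1:**
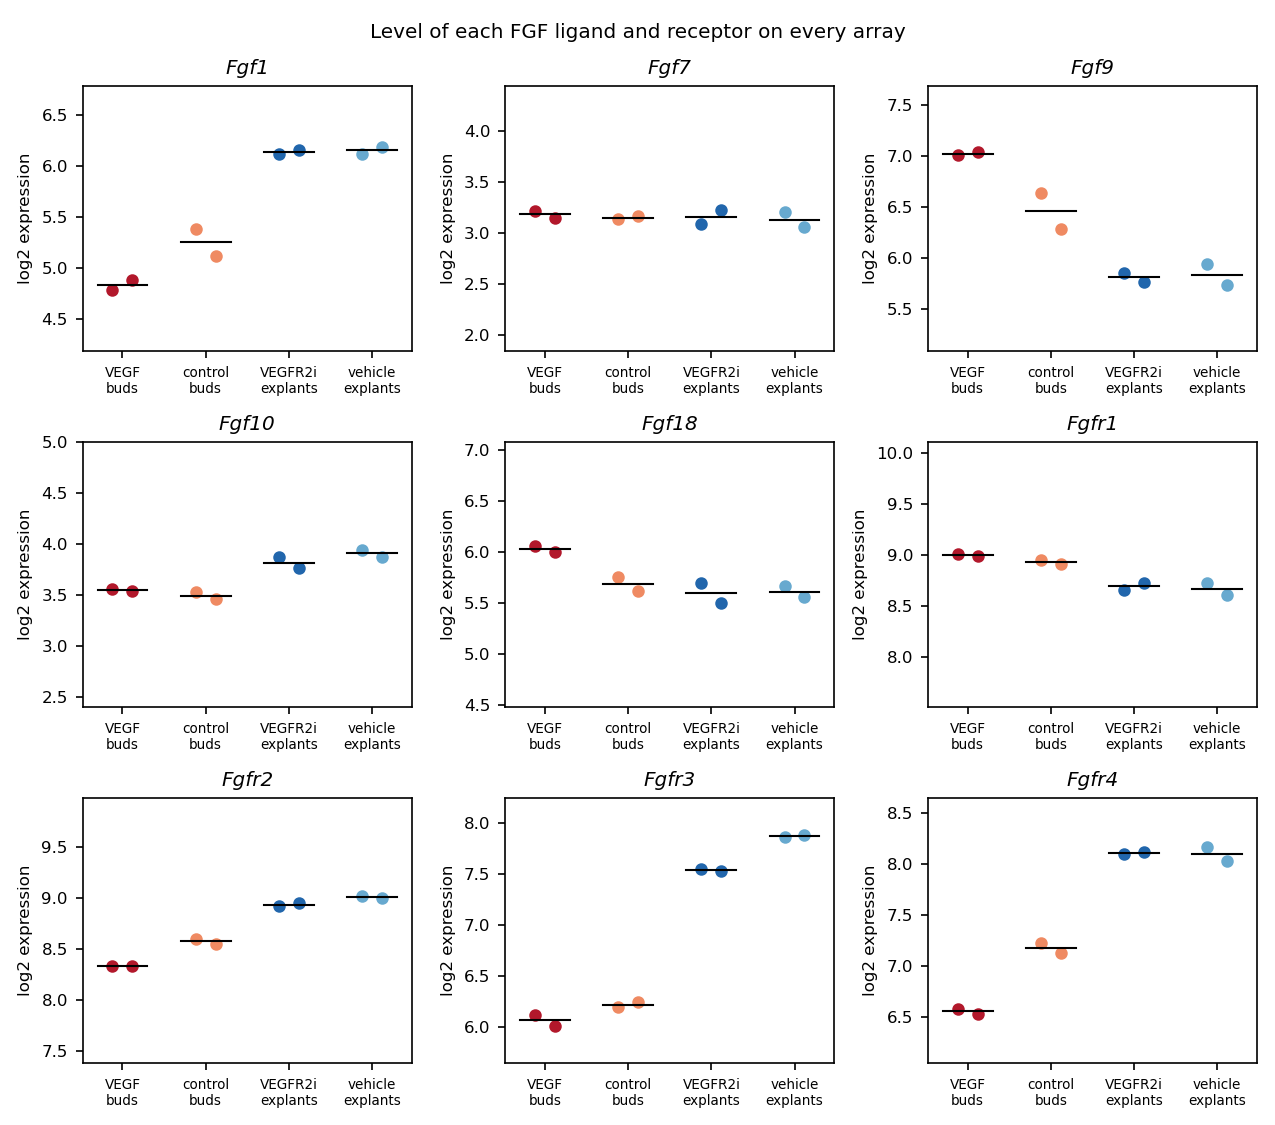
Log2 expression of the 9 genes (vertical axes, each spanning the same number of log2 units) in the 4 pools (horizontal axis). Points are the 2 arrays of a pool and bars their mean. Fgfr4 was lowest in the VEGF pool, Fgf9 highest there, and Fgf1, Fgfr3 and Fgfr4 were highest in the explants, while Fgf7 stayed between 3.05 and 3.22 on all 8 arrays.

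Among the receptors, Fgfr4 was the only member of the 9 that met the size rule between fresh buds. Fgfr4, probe set 10405380, is a receptor found in endoderm-derived epithelia that signals with the co-receptor Klb. It read 6.59 and 6.53 on the VEGF arrays, 7.23 and 7.14 on the control arrays, 8.10 and 8.12 on those labelled VEGFR2i, and 8.17 and 8.03 on those labelled vehicle. Both VEGF arrays therefore lay below every other array, both control arrays lay in the middle, and the explant pools overlapped. The difference between VEGF and control was -0.62 [-0.69, -0.55], a level 1.54-fold lower in the VEGF pool. Without control array 1 it was -0.575, just short of the size rule.

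Fgf9 was the ligand with the largest difference between fresh buds, in the opposite direction. Fgf9, probe set 10415651, read 7.01 and 7.04 on the VEGF arrays and 6.63 and 6.28 on the control arrays. It read 5.85 and 5.76 on the arrays labelled VEGFR2i and 5.94 and 5.73 on those labelled vehicle. The VEGF arrays were above all others, and the explant pools overlapped below both bud pools. The difference of 0.56 [0.37, 0.75], or 1.48-fold, fell short of the size rule. Its 2 control arrays were 0.35 apart, the widest gap between arrays of a pool among the 9 genes, and the difference was 0.74 without control array 1 and 0.39 without control array 2.

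The windows of 250 bases before the annotated start are shown for Fgfr4 and Fgf9, which differed most and in opposite directions between the bud pools, and for Fgfr3, which differed most between explants and buds. They come from RefSeq (GRCm38.p6), all on the plus strand: chr13:55152568-55152817 for Fgfr4, chr14:58072436-58072685 for Fgf9 and chr5:33721474-33721723 for the upstream one of 2 annotated starts of Fgfr3. Capitals mark matches, on either strand, to the ETS core CCGGAA, the E-box CANNTG, the FOXA motif TGTTTAC, the HNF1 motif GTTAAT or the GC box GGGCGG, and no base was shared by matches to different motifs.
Fgfr4: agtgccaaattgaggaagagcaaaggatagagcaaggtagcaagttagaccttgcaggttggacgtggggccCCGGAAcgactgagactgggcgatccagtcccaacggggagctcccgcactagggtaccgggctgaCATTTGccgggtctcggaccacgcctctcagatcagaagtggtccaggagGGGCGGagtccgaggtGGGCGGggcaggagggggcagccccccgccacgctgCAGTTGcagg
Fgf9: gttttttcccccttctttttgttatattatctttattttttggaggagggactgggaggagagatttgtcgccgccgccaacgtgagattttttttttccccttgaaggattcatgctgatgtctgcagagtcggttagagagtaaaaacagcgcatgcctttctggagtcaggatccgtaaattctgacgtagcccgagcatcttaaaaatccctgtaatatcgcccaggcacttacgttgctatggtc
Fgfr3: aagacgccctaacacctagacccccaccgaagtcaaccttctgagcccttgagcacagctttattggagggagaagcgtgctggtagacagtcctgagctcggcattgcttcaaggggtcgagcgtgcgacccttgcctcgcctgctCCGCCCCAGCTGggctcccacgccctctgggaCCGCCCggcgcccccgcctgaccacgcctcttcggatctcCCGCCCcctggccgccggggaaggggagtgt

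The Fgfr4 window held 1 ETS core, 2 E-boxes and 2 GC boxes, and the Fgfr3 window held 1 E-box and 3 GC boxes. The Fgf9 window held none of these letters. Of 32851 windows of this length in the RefSeq table, 12% held the ETS core, 66.2% an E-box, 3.17% the FOXA motif, 6.43% the HNF1 motif and 32.7% a GC box. The bases G and C made up 64.0% of the Fgfr4 window, 66.8% of the Fgfr3 window and 44.8% of the Fgf9 window, against a median of 52.4% over all windows. The window of the other annotated Fgfr3 start, not shown, held 2 GC boxes and no other match, with G and C at 72.8%. Windows of 7 of the 9 members were examined, without Fgf1 and Fgfr1, and the only FOXA match among them lay in that of Fgf10. Member windows on 1 chromosome were left out of the search, so a member without a window here may still have an annotated one. A match describes letters in a window and no binding of a factor.

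The other receptors differed less between fresh buds. Fgfr2, probe set 10568436, the receptor of Fgf10 and Fgf7, read 8.33 and 8.34 on the VEGF arrays and 8.60 and 8.55 on the control arrays. Its 2 VEGF arrays were almost equal and lay below both control arrays, with a difference of -0.24 [-0.26, -0.22]. Fgfr3, probe set 10521111, read 6.12 and 6.01 against 6.20 and 6.25, a difference of -0.15 [-0.23, -0.08]. Fgfr1, probe set 10570982, the main receptor of mesenchyme in many organs, read 9.01 and 8.99 against 8.95 and 8.92, a difference of 0.06 [0.04, 0.09]. Of the 4 receptors, 3 had a lower mean in the VEGF pool, and Fgfr1 had a higher one.

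Fgf18 and Fgf1 were the remaining ligands with differences above 0.3 in size. Fgf18, probe set 10385036, a ligand of the same subfamily as Fgf8, read 6.06 and 6.004 on the VEGF arrays and 5.75 and 5.62 on the control arrays. The VEGF arrays were the highest of the 8, and the difference was 0.35 [0.25, 0.44], or 1.27-fold. Fgf1, probe set 10458560, read 4.78 and 4.88 on the VEGF arrays and 5.38 and 5.12 on the control arrays. Both VEGF arrays were the lowest of the 8, and the difference was -0.42 [-0.60, -0.24], a level 1.34-fold lower. Neither met the size rule.

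The ligands of the Fgfr2 epithelial form gave little signal. Fgf10, probe set 10407350, read between 3.46 and 3.56 on the bud arrays and between 3.77 and 3.94 on the explant arrays, and Fgf7, probe set 10475643, between 3.05 and 3.22 on all arrays. Every one of these values lay under the median of all probe sets on its array, those medians being 4.08 to 4.12 for buds and 4.29 to 4.33 for explants. Robust multi-array averaging compresses differences at such levels, so the differences of 0.05 for Fgf10 and 0.04 for Fgf7 between the bud pools bear little on either ligand. The dim signal does not show that the ligands were absent.

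In all, 1 of the 9 members met the size rule between VEGF and control buds, against 1.48% of all genes in either direction and 0.933% for lower genes. Without genes under a mean level of 5, the rule was met by 1 of 7 members and by 261 of 10356 genes. The arrays of the bud pools did not overlap for 8 of the 9, Fgf7 being the exception, against 45.3% of all genes. The median size of the difference was 0.24 for the 9 and 0.06 over all genes. The 7 members other than Fgf7 and Fgfr4 thus had arrays that did not overlap at a size below 1.5-fold, and the spread between animals was not measured.

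**Figure D2:**
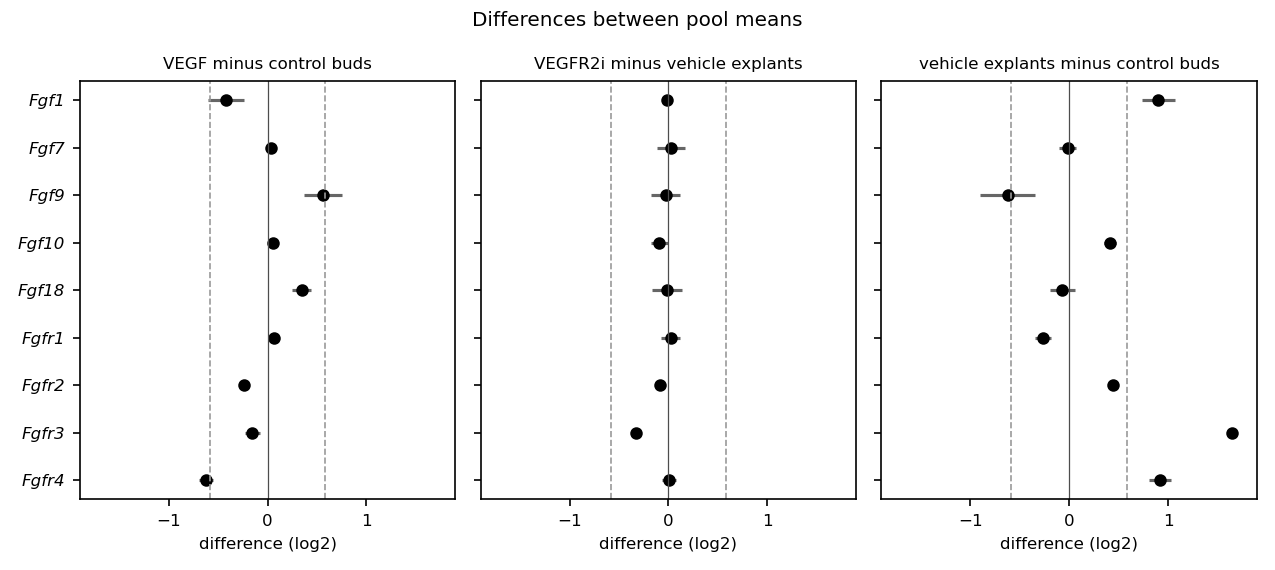
Difference of pool means (horizontal axes, log2) for the 9 genes in 3 comparisons. Points are differences of means, grey bars the range over the 4 array pairs, and dashed lines 1.5-fold. Fgfr4 lay past the line between VEGF and control buds, no gene did between the explant pools, and Fgfr3 at 1.65 was farthest from 0 between vehicle explants and control buds.

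Markers of cell types differed between the same bud pools. All 11 measured epithelial markers had lower means in the VEGF pool, 5 by the size rule, with a median difference of -0.48. Their mean level was 7.14 to 7.18 on the VEGF arrays and 7.68 to 7.72 on the control arrays. The adhesion proteins Cdh1 (-0.64) and Epcam (-0.45) were among them. All 11 progenitor markers had lower means as well, 5 of them by the size rule, and their median was -0.58. They included Nkx6-1 (-0.94), Cpa1 (-0.87), Prox1 (-0.72) and Sox9 (-0.70). Endothelial markers had a median difference of 0.54 with 6 of 15 higher, and mesothelial markers, from the lining of the organ, 0.73 with 6 of 9 higher, such as Lhx9 (1.18) and Gpm6a (0.95). Mean endothelial levels were at most 8.03 on the VEGF arrays and 7.41 to 7.44 on the control arrays. Mean mesothelial levels were 6.56 to 6.60 on the VEGF arrays and at most 6.01 on the control arrays. Mesenchymal markers had 1 of 16 higher (Hlx, 0.66), 1 lower (Prrx1, -0.77) and a median of 0.13, with Col1a1 at 0.00 and Pdgfra at -0.07. Of 11 endocrine markers 8 were lower (median -1.52), of 10 acinar markers 3 (-0.14) and of 8 neural markers 3 (-0.36), while 6 of 9 erythroid markers were higher (1.01). No mural or leukocyte marker met the size rule, with medians of 0.10 for each list. Some acinar and endocrine markers were near the low end of the values (2.41) in both the VEGF and the control pool. Cpb1 (2.98 and 2.97), Prss2 (3.22 and 3.23) and Ins2 (3.37 and 3.47) were examples. Such dim genes, Sycn (4.03 and 4.14) among them, keep the acinar median small. The 3 lower acinar markers were Ctrb1 (6.15 and 8.22), Clps (5.71 and 7.58) and Cel (4.18 and 5.06). The part of these lists in the values of Fgfr4, Fgf9, Fgf1 and Fgf18 was not tested.

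Regulators of Fgfr2 splicing also differed between the bud pools. Esrp1 and Esrp2, epithelial proteins that direct the inclusion of the exon of the epithelial Fgfr2 form, were lower in the VEGF pool by the size rule, as 2 of 4 genes listed. Esrp1 read 7.60 and 7.42 on the VEGF arrays and 8.31 and 8.26 on the control arrays, a difference of -0.78 [-0.89, -0.67]. Esrp2 was at 5.86 against 6.50, a difference of -0.64. Both VEGF arrays were below both control arrays for each gene. Rbfox2 and Ptbp1, splicing factors found in many cell types, differed by -0.04 and -0.05.

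Genes that answer FGF and other ERK-activating receptors, VEGF receptors among them, leaned the other way in the buds. Of 13 such feedback and target genes, 12 had higher means in the VEGF pool and none met the size rule, with a median of 0.25 against 0.00 over all genes. Dusp6, a phosphatase that inactivates ERK, had the largest difference of the list, at 8.54 and 8.49 against 8.02 and 7.92, or 0.55 [0.47, 0.62]. The ETS factor Etv4 read 5.42 and 5.17 against 5.02 and 4.59, a difference of 0.49 [0.15, 0.83]. Arrays of the pools did not overlap for either gene, nor for 45.3% of all genes at any size. Without control array 1 both met the size rule, and without VEGF array 2 Etv4 did.

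No other gene of the pathway met the size rule between the bud pools. This held for 13 other FGF ligands, 4 intracellular FGF homologous factors, 8 co-receptors and binding proteins, 21 heparan sulphate proteoglycans and enzymes and 13 adaptors and kinases. Their medians were 0.02, -0.02, 0.03, 0.04 and -0.04. Klb, the co-receptor of Fgfr4, was at 4.52 ± 0.13 (SD, n = 2) against 5.03 ± 0.14, a difference of -0.51 [-0.70, -0.32]. At a size of at least 0.32 the lists also held the syndecan Sdc2 (0.42), the heparan sulphate enzymes Sulf1 (0.40) and Hs6st2 (0.36), the ligand Fgf5 (0.33) and the glypican Gpc4 (-0.33). Klb and these 5 were picked by size after their values were seen. The arrays of the pools did not overlap for any of the 6, nor for 45.3% of all genes at any size. Among the brightest members, the adhesion protein Flrt2 differed by -0.16 and the glypican Gpc3 by 0.07.

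Between the explant pools the 9 members were nearly level, and none met the size rule, against 2.19% of all genes. Without genes under a mean level of 5, the rule was met by 0 of 7 members and by 338 of 10356 genes. The arrays of the pools did not overlap for 3 of the 9, Fgf10, Fgfr2 and Fgfr3, against 51% of all genes, and the median size of the difference was 0.03, against 0.07 over all genes. Fgfr3 had the largest difference. It read 7.55 and 7.54 in the pool labelled VEGFR2i and 7.87 and 7.88 in the pool labelled vehicle, so both vehicle arrays were the highest of the 8. The difference was -0.33 [-0.34, -0.32], or 1.26-fold. Fgfr2 was at 8.92 and 8.95 against a mean of 9.01, a difference of -0.08, and the dim Fgf10 differed by -0.09.

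The other members of the explant pools overlapped. Fgf1 was at 6.14 against 6.16, Fgf9 at 5.81 against 5.84, Fgf18 at 5.60 against 5.61 and Fgf7 at 3.15 against 3.13. Among the receptors, Fgfr1 was at 8.69 against 8.67 and Fgfr4 at 8.11 against 8.10. These 6 differences were all within 0.03 on the log2 scale. The array pairs allowed differences of -0.17 to 0.17 for them.

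Markers of other cell types moved in these same pools. Endothelial markers were higher in the pool labelled VEGFR2i for 14 of 15 genes, with a median of 2.10 and mean levels of 6.74 to 6.79 against 4.53 to 4.58. Of 10 mural cell markers 7 were higher (median 0.78), including Rgs5 (1.26) and Pdgfrb (1.15), and of 10 leukocyte markers 9 (median 0.99), including Laptm5 (1.35) and Cybb (1.31). All 11 epithelial markers had lower means, none by the size rule, with a median of -0.22 and mean levels of 9.41 to 9.42 against 9.64 to 9.67. Of 10 acinar markers 7 were lower, with a median of -0.83, Sycn (-1.48) and Cpb1 (-1.38) among them. Mesenchymal markers had 2 of 16 higher (median 0.25), erythroid markers 2 of 9 (0.06) and neural markers 1 of 8 (-0.01). No progenitor, mesothelial or endocrine marker met the size rule, with medians of -0.10, 0.06 and -0.05. The part of these cells in the Fgfr3 difference was not tested.

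Feedback and target genes of the pathway differed between the explant pools. Of the 13, 7 were higher in the pool labelled VEGFR2i, against 1.82% of all genes, 12 had a positive difference, and the median was 0.61. Spry4, a Sprouty inhibitor of receptor tyrosine kinase signalling, read 6.83 and 6.83 against 4.98 and 5.46, a difference of 1.61 [1.36, 1.85] or 3.05-fold. Dusp6 read 8.13 and 8.05 against 7.03 and 6.87, a difference of 1.14 [1.02, 1.27] or 2.21-fold. Spry2 differed by 0.78 and the ETS factor Etv5 by 0.70, while Spry1 (0.68), Spred1 (0.67) and Dusp5 (0.61) also met the size rule. The exception to the direction was Etv1, at 7.38 in both pools. These genes answer many receptors, and the endothelial, mural and leukocyte markers above were higher in the same pool. Which receptor or cell type they report was not tested. With quantile normalization, or without vehicle array 2, Dusp5 no longer met the size rule.

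**Figure D3:**
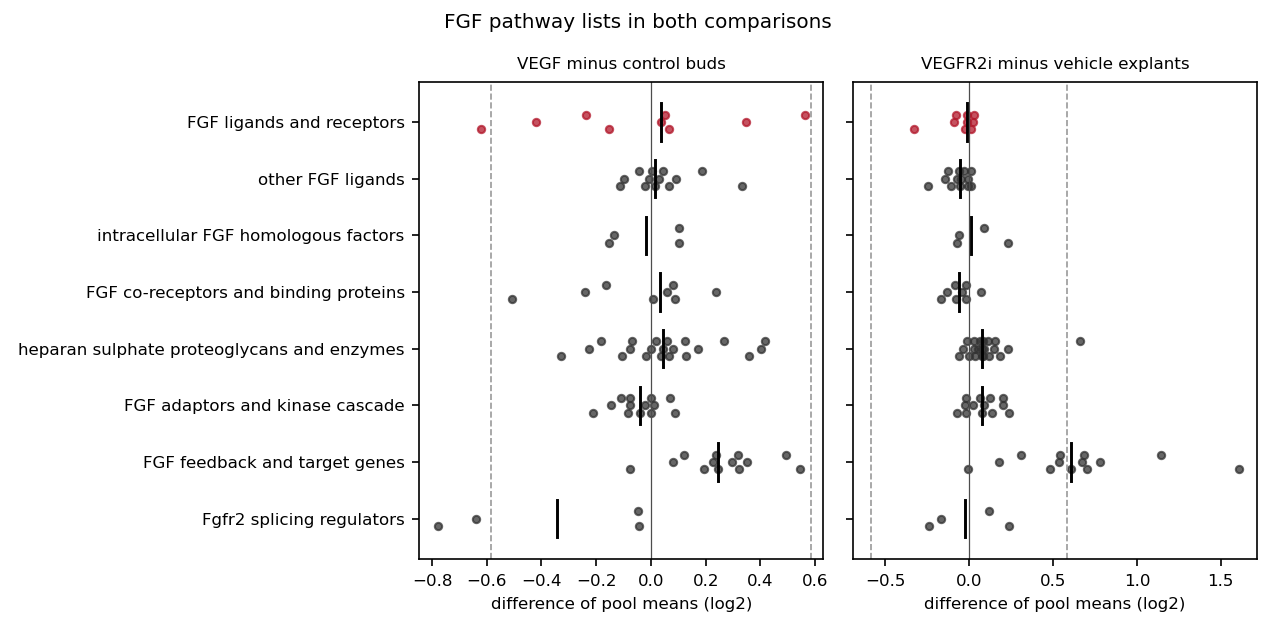
Differences of pool means (horizontal axes, log2, with a different range in each panel) for every measured gene of the FGF lists (rows), VEGF minus control buds on the left and VEGFR2i minus vehicle explants on the right. Points are genes, red for the 9 ligands and receptors, black bars are list medians and dashed lines mark 1.5-fold. The feedback and target genes had medians of 0.25 and 0.61, and the ligands and receptors 0.04 and -0.01.

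Elsewhere in the pathway 1 gene met the size rule between the explant pools. Sdc3, a syndecan that carries heparan sulphate, was at 7.71 under the VEGFR2i label and 7.06 under the vehicle label, 0.66 apart [0.58, 0.74]. The other 20 heparan sulphate genes and all members of the lists of other ligands, homologous factors, co-receptors, adaptors and splicing regulators stayed below it. Their list medians lay between -0.06 and 0.08. Klb was at 6.94 against 6.96, and Esrp1 at 9.42 against 9.59.

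Levels were also set between the explants labelled vehicle and the control buds, which differ in culture, in time and in genotype and may have been normalized apart. The median difference over all genes was 0.17, and arrays centred on their medians moved it to -0.04. By the size rule, 4 of the 9 members differed, against 22% of all genes. Of all genes 17.9% were higher and 4.08% lower. The arrays did not overlap for 7 of the 9, against 83.8%. Centring on array medians moved the split of all genes past the rule from 3578 higher and 814 lower to 2269 and 1279, and quantile normalization to 1970 and 1487. Fgf1, Fgf9, Fgfr3 and Fgfr4 met the rule under both scalings. They were also the 4 that met it when the pool labelled VEGFR2i was set against the control buds, against 20.2% of all genes, with differences of 0.89, -0.65, 1.32 and 0.93. For these 4, the direction against control buds was thus the same whichever explant pool was used.

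Fgfr3, Fgfr4, Fgfr2 and the ligand Fgf1 had higher means in the explants. Fgfr3 differed by 1.65 [1.62, 1.68], or 3.14-fold, and by 1.48 relative to the median of all genes. Fgfr4 differed by 0.92 [0.81, 1.03] and Fgf1 by 0.90 [0.74, 1.07], or 0.75 and 0.73 relative to that median. Fgfr2 differed by 0.44, which did not meet the size rule. With all arrays quantile normalized together the differences were 1.33 for Fgfr3, 0.62 for Fgfr4, 0.59 for Fgf1 and 0.13 for Fgfr2. For each of these 4 genes the arrays of both explant pools lay above those of both bud pools.

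Fgf9 and Fgfr1 had lower means in the vehicle explants than in the control buds. Fgf9 differed by -0.62 [-0.90, -0.34], or -0.79 relative to all genes, but by -0.45 without control array 1 and -0.52 without vehicle array 2, both short of the size rule. With quantile normalization it was -0.95. Fgfr1 differed by -0.26 [-0.34, -0.19], and by -0.57 with quantile normalization. The dim Fgf10 differed by 0.41 [0.35, 0.48], by 0.20 with centring and by 0.26 with quantile normalization. Fgf18 arrays of the vehicle explants and the control buds overlapped as deposited, at 5.61 against 5.68, a difference of -0.07 that was -0.28 with centring and -0.38 with quantile normalization.

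Epithelial markers differed across the sets as well. All 11 were higher in the vehicle explants, with a median of 1.71, as were 10 of 11 progenitor, 9 of 11 endocrine and 10 of 10 acinar markers, with medians of 1.20, 2.46 and 4.77. By contrast all 15 endothelial markers and 6 of 9 erythroid markers were lower, with medians of -2.81 and -2.59. Mural markers had 3 of 10 higher and 6 lower, with a median of -1.08 but a mean list level of 7.73 against 7.84. Leukocyte markers had 1 of 10 higher and 4 lower, with a median of -0.41. The medians were 0.01 for mesothelial and 0.75 for neural markers. Mesenchymal markers had 2 of 16 higher and 6 lower, with a median of -0.03. Esrp1 and Esrp2 were 2.46-fold and 2.26-fold higher. In the same comparison Klb was higher by 1.93 and Fgf2, a ligand at 3.58 in the control buds and 5.58 in the vehicle explants, by 2.00, both picked after their values were seen. Of the 13 feedback and target genes 5 were lower, led by Spry1 (-1.13) and Dusp6 (-1.02), and Dusp4 was higher by 0.82, a call that quantile normalization ended. The lower genes numbered 7 with centring and 8 with quantile normalization.

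Some of these list results, such as those of feedback and endothelial genes, depend on which explant pool is set against the control buds. With the pool labelled VEGFR2i, none of the 13 feedback and target genes was lower and 3 were higher, with a median of 0.12. Dusp6 was then at 8.09 against 7.97 and Spry4 at 6.83 against 6.10. Of 15 endothelial markers 7 were lower, with a median of -0.58, and Cdh5 was at 8.66 against 8.52. Mural markers had 3 of 10 higher and 3 lower, with a median of -0.13 but a mean list level of 8.51 against 7.84, and leukocyte markers 3 of 10 higher and 2 lower, with a median of 0.31. Epithelial markers were all 11 higher, with a median of 1.55, Esrp1 differed by 1.14, Klb by 1.91 and Fgf2 by 1.89. The part of cell makeup in these differences was not tested.

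The order of the pools followed a few shapes. From high to low, Fgf1, Fgfr2, Fgfr3 and Fgfr4 had both explant pools, then the control buds, then the VEGF buds, and neighbouring bud pools were apart on every array. The explant neighbours were apart for Fgfr2 and Fgfr3, with vehicle on top, and overlapped for Fgf1 and Fgfr4. Fgf9 and Fgf18 ran from VEGF buds through control buds to the explants, the last neighbours of both overlapping, and for Fgf18 also the control buds and the vehicle explants. Fgfr1 had the same order of bud pools over explants within a span of 0.33, and the explant pools overlapped. For Fgf7 no neighbours were apart, and for the dim Fgf10 all were, in the order vehicle, VEGFR2i, VEGF and control. At a smaller size of 0.32 on the log2 scale, 4 of the 9 members differed between the bud pools against 5.17% of all genes, 1 between the explant pools against 6.29%, and 6 between vehicle explants and control buds against 40.7%. At 2-fold the counts were 0 against 0.251%, 0 against 0.667% and, with Fgfr3, 1 against 9.6%.

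Genes of like shape were sought for the 4 members whose pool means spanned at least 1, by the root mean square distance between profiles centred on their mean over the 8 arrays. Symbols that start with Gm and a digit, Olfr, Vmn or Taar, or end in Rik, were left out of the search and its counts. For Fgfr4 (span 1.55) the nearest were Onecut1, a progenitor transcription factor, at a distance of 0.05, Ids at 0.06 and Pcsk1n at 0.07, with 79 genes closer than 0.15. For Fgfr3 (span 1.80) they were Mapkapk3 at 0.04, Lsr at 0.04 and Wdtc1 at 0.06, with 240 genes closer than 0.15. For Fgf1 (span 1.32) they were Ush1c at 0.07, Golm2 at 0.08 and Fam234b at 0.08, among 226 such genes. For Fgf9 (span 1.21) they were Adgrg3 at 0.10, Kcnab1 at 0.11 and Lrp2 at 0.12, among 17. With 4 pools these shapes are few, and likeness says nothing of the cells involved.

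**Figure D4:**
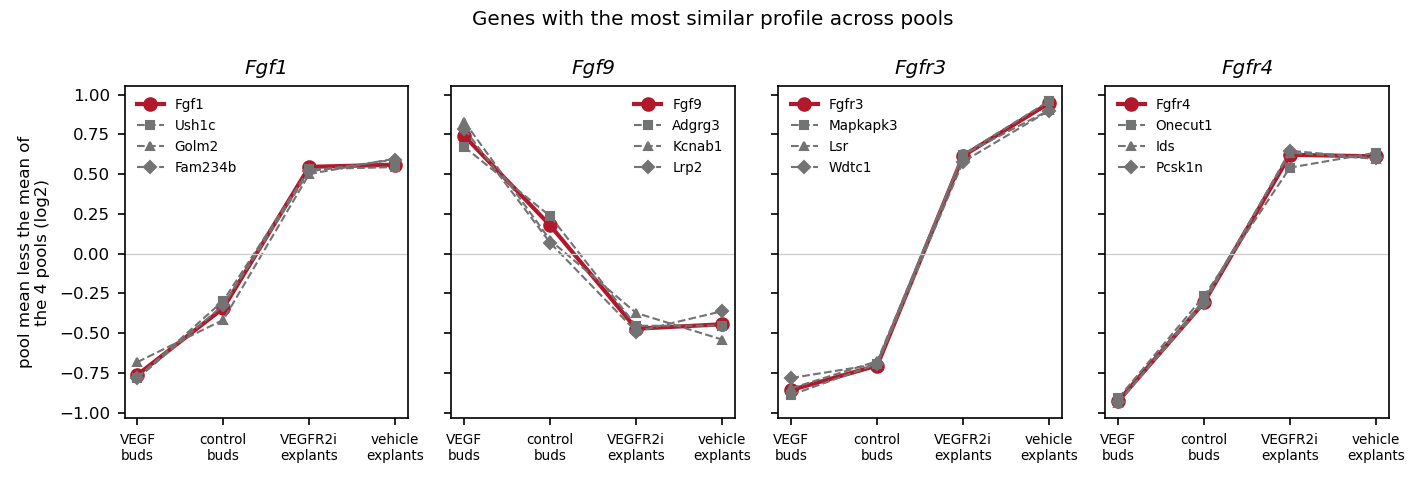
Pool means less their mean over the 4 pools (vertical axis, log2) for Fgf1, Fgf9, Fgfr3 and Fgfr4 (red) and the 3 genes of most similar profile (grey dashed lines), by pool (horizontal axis). Profiles of Fgf1, Fgfr3 and Fgfr4 run from low in the VEGF buds to high in the explants, and that of Fgf9 runs the other way.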

How the data were processed

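Per the series' design text, the authors used Partek Genomic Suite 6.5 and RMA (robust multi-array averaging). Each probe set has 1 deposited log2 value per array, between 2.41 and 13.57, and the scale was inferred from that range. No source used here says whether buds and explants were normalized in 1 run. RMA gives arrays like distributions, so a shift of most genes can be lost and dim genes show smaller differences. Arrays have no depth, and 2 arrays per pool limit the precision.

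Of 35399 probe sets, 21789 carried 1 symbol in the platform annotation. For genes with several, the probe set of highest mean stood for the gene, which left 19938. Pool means, differences and calls were computed with Python 3.11.15, numpy 2.4.6 and pandas 2.3.3. The size rule was also run on simulated arrays with genes shifted by 1 log2 unit and noise set by the technical repeats. That run did not test the rule near 1.5-fold or against variation between animals. With 1 pool per group no test of a condition was made. The methods' t-test was run on the arrays as an alternative, with others given in the closing section. Besides the members, 18 lists were described, with 204 of 219 genes measured and the other 15 not analysed here. Isl1 stands in 2 of them. Members and lists were chosen with earlier results of these data known.

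Named genes were the 9 members, up to 4 genes past the size rule per list and comparison, the brightest gene of an FGF list without one, 8 tissue checks and the 3 nearest profiles per member spanning at least 1. Klb, Fgf2, Dusp4, 5 pathway genes at the smaller size, feedback genes beyond the first 4 or short of the rule, and the comparison between sets were added after values were seen.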

Additional observations from a re-analysis of the deposited data

How the results depend on the processing

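No paired analysis was possible because each group is 1 pool and its second array a technical repeat, so the arrays carry no pairing. Between VEGF and control buds, the count of members past the size rule was 1, and it was 2 with arrays centred on their medians (Fgf9 joined at 0.586), 0 at 2-fold and 4 at the smaller size of 0.32 (log2). Leaving out 1 array kept it at 1, but without control array 1 the member was Fgf9 in place of Fgfr4. The count of all genes there was 296, and 50 at 2-fold, 1030 at the smaller size and 300 to 337 without 1 array. Between the explant pools 0 members became 1 at the smaller size (Fgfr3), and 437 genes became 133 at 2-fold, 1254 at the smaller size and 428 to 483 without 1 array. With 1.5-fold added, the methods' t-test on single arrays found 271 genes in buds and 405 in explants at an unadjusted p under 0.05, and 0 and 1 after Benjamini-Hochberg adjustment. It measures hybridization error only. Feedback and target genes past the rule were 0 in buds, 4 at the smaller size and 0 to 2 without 1 array, and 7 in explants, 2 at 2-fold. Between vehicle explants and control buds, alternatives chosen after seeing the data gave 4 members past the rule, 1 at 2-fold and 3 to 4 without 1 array. They gave 4392 genes, 1914 at 2-fold and 8120 at the smaller size, and 6 feedback genes, 2 at 2-fold. With the pool labelled VEGFR2i in place of vehicle, 4 members, 4033 genes and 3 feedback genes met the rule. Fewer or more genes at another fold follow from that fold, and for the other changes the cause was not tested. Over the alternatives that change no fold, all 70 member differences of the buds kept their sign, as did 55 of 70 in the explants, where most are near 0, and 69 of 70 between the sets. Many of these values could not change sign. Each member has 1 probe set, so averaging probe sets or leaving out dim genes repeats its difference. Where the arrays of the pools do not overlap, leaving out 1 array cannot turn the sign either. Signal near the low end of the range limits what can be said of Fgf7 and Fgf10.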
